A study of Homo sapiens with 6 samples.

Results

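The genes described here are the collagens, laminins and integrins, taken from the count tables by the spelling of their symbols: COL, a number, A and a number; LAM, the letter A, B or C and a digit; or ITG, the letter A or B and further letters or digits. That rule found 86 of 33514 gene symbols, 44 of them collagen, 12 laminin and 30 integrin symbols. In the last family, 4 symbols match by spelling but encode no integrin subunit: ITGB1BP1 and ITGB1BP2, which bind the tail of the beta 1 chain, ITGB3BP, a protein of the centromere, and ITGBL1, a secreted protein with integrin-like repeats. The other 26 are subunits.

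PC3 is a human prostate cancer line that came from a metastasis in bone. Its cells were cultured in RPMI with serum and sequenced in 3 groups of 2 libraries: untreated, with 50 µM heme in the medium for 2 h, and with the same heme for 4 h. The series concerns hemopexin, the plasma protein that binds free heme, and heme held by G-quadruplexes, folds of guanine-rich DNA. The labels name no vehicle and do not say whether the 2 libraries of a group are separate cultures, so the p-values measure the spread between libraries, which may be technical.

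The libraries held 53129375 to 55537611 reads in genes, of which 0.808% to 0.953% fell on the 86 genes. HMOX1, the heme-degrading enzyme and the usual marker of heme exposure, stood at 10.4 and 11.4 CPM (a gene's reads relative to the size of its library, scaled by TMM) in the controls, 451 and 327 at 2 h and 382 and 341 at 4 h. Genes typical of an epithelial tumour line (EPCAM, KRT8, KRT18, KRT7, KRT19 and CDH1, with the mesenchymal VIM) summed to between 3161 and 3643 CPM in every library; of these, EPCAM fell (log2 -0.29, SE 0.09) and CDH1 rose (log2 0.28, SE 0.09) at 2 h. KLK3, the gene of prostate-specific antigen, had 0 reads throughout, a count compatible with at most 0.0581 CPM in the library of lowest scaled depth. All 7 fibroblast markers were under 1 CPM in every library, with a sum of at most 0.521 CPM. Among 8 blood cell markers PTPRC, the pan-leukocyte gene, stayed at or below 0.0968 CPM, while CD68, a lysosomal gene that marks macrophages, stood at 42.5 to 51.0 CPM.

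Collagens are trimeric matrix proteins: fibrillar types build the stroma, while type IV builds the sheet of the basement membrane. Laminins are cross-shaped trimers of an alpha, a beta and a gamma chain, and they link that sheet to the cell surface. Integrins are alpha-beta heterodimers that bind collagen, laminin or fibronectin outside the cell and the actin or keratin skeleton inside it. In epithelium a laminin that contains the LAMA3 and LAMB3 chains and the integrin of ITGA6 and ITGB4 belong to the hemidesmosome, which anchors cells to the basement membrane.

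Across all 6 libraries 61 of the 86 genes had enough reads to be tested: 27 collagen, 11 laminin and 23 integrin genes. The filter took in the heme libraries, so a gene scarce in the controls could pass it. Levels between genes are compared here as control CPM per kb of annotated exon. Among laminins the hemidesmosomal chains LAMB3, at 174 CPM per kb, and LAMA3, at 50.5, were above LAMC1 at 30.1 and LAMA5 at 27.2. Among integrins ITGB1, the beta chain shared by most integrins, stood at 249 CPM per kb. It was followed by ITGA3 (96.4), whose dimer with ITGB1 binds laminin, ITGA2 (62.9), whose dimer binds collagen, ITGB4 (37.5) and ITGA6 (29.4). Among collagens the type VI chains COL6A2 (62.8) and COL6A1 (54) came first. COL4A2 (12.1), COL12A1 (11.5) and the transmembrane collagen COL13A1 (11.1) came next and lay close together.

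The 25 genes that were not tested, 17 collagens, 7 integrins and LAMB4, had at most 19 reads in any library. COL19A1 and COL6A5 had 0 in every library. Several of them, named after their values were seen, are the usual partners of genes that PC3 cells did express. COL1A2, the second chain of type I collagen, had 1 to 3 reads per library, while its partner COL1A1 stood at 27.6 ± 1.99 CPM in the controls (SD, n = 2). ITGB2, the beta chain of leukocyte integrins, stood at 59.7 ± 0.0986 CPM (SD, n = 2), while its alpha partners had 0 to 2 reads per library (ITGAL), 1 to 4 (ITGAM), 1 to 8 (ITGAX) and 0 to 1 (ITGAD).

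After 2 h of heme, 22 of the 61 tested genes passed the threshold, an adjusted p under 0.05 in edgeR's quasi-likelihood test: 19 were higher and 3 lower. Over all 16209 genes tested, 31.7% passed, 15.9% higher and 15.8% lower, so the 36.1% of these families lay near the background, with 31.1% higher and 4.92% lower. Collagens had 6 of 27 higher and 0 lower (22.2% called). Laminins had 4 of 11 higher and 1 lower (45.5%), and integrin genes had 9 of 23 higher and 2 lower (47.8%). Both integrin genes that fell are among those that encode no subunit, so 9 of 19 tested subunits rose and 0 fell. Of these 9, ITGA10 and ITGB7 passed the filter for testing only with the heme libraries. The median log2 change was 0.34 for collagens, 0.14 for laminins and 0.31 for integrin genes, against 0.02 for all genes.

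Leaving out a single library changed these counts: 12 genes were called without control replicate 1 (12 higher and 0 lower), with 13.7% of all genes (7.16% higher and 6.59% lower). Without control replicate 2 the count was also 12 (9 higher and 3 lower), with 17.7% of all genes (8.35% higher and 9.33% lower). The 9 genes called in each of the 10 alternative settings were LAMA4, LAMA5, LAMB1, LAMB2, ITGB3, ITGB4, ITGB8, ITGA5 and COL1A1, all higher; the other 13 were not called in at least 1 setting. The share of all genes called in every setting was not computed, so these 9 cannot be set against a background. The 2 heme libraries of 2 h differed in size of response. Of the 19 genes that rose, 15 were higher in replicate 1 than in replicate 2, as were 73.9% of all genes that rose.

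Guanine and cytosine content moved with the change. Transcripts of the 19 genes that rose had a median GC content of 59.4% (41.1% to 66.9%), against 50.8% (36.9% to 66.1%) for the other 42 tested members. Over all genes the medians were 54.8% for those that rose and 44.3% for those that fell. After the trends with GC content and length were taken out of every library, 17 members were higher and 7 lower at 2 h (39.5% of all genes called, 19.4% higher and 20.1% lower). The part of GC content in the single results was not tested.

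**Figure D1:**
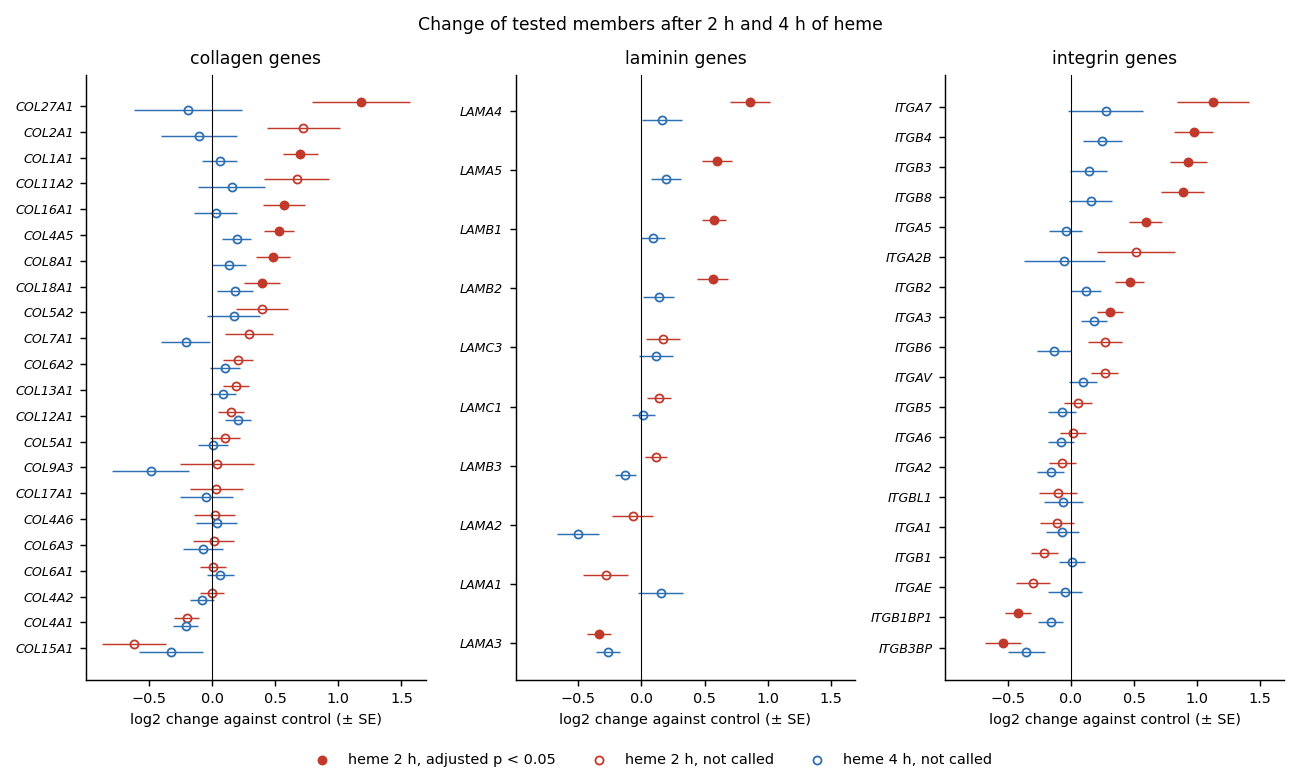
Log2 change against control (horizontal axis, ± SE) of tested collagen, laminin and integrin genes with a mean of at least 1 CPM in a group, after 2 h (red) and 4 h (blue); filled points passed an adjusted p of 0.05. At 2 h 17 points right of 0 and 3 left of 0 are filled, and at 4 h none is.

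The 4 laminin genes that rose at 2 h encode alpha and beta chains found outside the hemidesmosome. LAMA5, the alpha chain of laminin-511 and laminin-521 in adult basement membranes, was at 389.8 and 387 CPM in the controls, 618 and 557 CPM at 2 h and 378 and 509.9 CPM at 4 h. Both libraries of 2 h lay above both controls, while the 4 h libraries fell on either side of them (log2 0.60, SE 0.12, edgeR adjusted p = 0.00198). LAMB1, the beta chain of laminin-511, was at 145 and 133 CPM in the controls, 212 and 202 CPM at 2 h and 152 and 146 CPM at 4 h, with the 2 h libraries close together and apart from the other 4 (log2 0.57, SE 0.09, edgeR adjusted p = 5.13e-04). LAMB2, its counterpart in laminin-521, was at 142 and 139 CPM in the controls, 236 and 178 CPM at 2 h and 143 and 165 CPM at 4 h (log2 0.56, SE 0.12, edgeR adjusted p = 0.00343). Its rise was uneven, with replicate 1 well above replicate 2. LAMA4, an alpha chain typical of vessel walls and mesenchyme, was the scarcest of the 4 and had the largest log2 change among laminins, at 7.88 and 6.32 CPM in the controls, 13.3 and 12.4 CPM at 2 h and 7.76 and 8.11 CPM at 4 h (log2 0.86, SE 0.16, edgeR adjusted p = 9.42e-04). The GC and length correction lowered the log2 change of LAMA5 to 0.22 and that of LAMB2 to 0.37, and left LAMB1 at 0.55 and LAMA4 at 0.82.

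The hemidesmosomal chains LAMA3 and LAMB3 did not follow. LAMA3 fell, from 763 and 719 CPM in the controls to 541 and 631 at 2 h, with 629.6 and 606 at 4 h (log2 -0.34, SE 0.10, edgeR adjusted p = 0.0149). All 4 heme libraries lay below both controls. The call was lost without control replicate 1 (adjusted p = 0.149) and without replicate 1 of 2 h (adjusted p = 0.0973). LAMB3 was at 812 and 823 CPM in the controls, 886 and 887 CPM at 2 h and 724 and 774 CPM at 4 h and was not called at 2 h (log2 0.12, SE 0.09), although both 2 h libraries lay above both controls. LAMC1, the gamma chain of laminin-511 and laminin-521, was also not called (log2 0.14, SE 0.09). Per kb of exon, the ratio of LAMA5 to LAMA3 was 0.525 and 0.552 in the controls, 1.17 and 0.906 at 2 h, and 0.616 and 0.865 at 4 h. It exceeded 1 in replicate 1 of 2 h alone. Of the remaining chains, LAMA1 (log2 -0.28), LAMA2 (log2 -0.07) and LAMC3 (log2 0.17) were not called.

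In GENCODE on GRCh38, LAMA5 lies on chromosome 20 from 62307955 to 62367312, LAMB1 on chromosome 7 from 107923799 to 108003255 and LAMB2 on chromosome 3 from 49121114 to 49133118. The sequences before the starts of these chains are printed because they rose together and because the series is about guanine-rich DNA. They are the part of the 250 bases before the RefSeq start (GRCh38.p14) that holds no annotated exon, written 5′ to 3′ on the gene's strand, with matches to a G-quadruplex motif on either strand in capitals.
LAMA5, chr20:62367313-62367562, minus strand: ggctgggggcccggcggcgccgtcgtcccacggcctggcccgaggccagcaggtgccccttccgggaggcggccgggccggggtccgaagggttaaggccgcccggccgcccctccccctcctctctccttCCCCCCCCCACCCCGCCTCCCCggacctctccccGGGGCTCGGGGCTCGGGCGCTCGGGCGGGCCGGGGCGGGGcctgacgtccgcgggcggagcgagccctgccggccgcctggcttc
LAMB2, chr3:49133119-49133300, minus strand: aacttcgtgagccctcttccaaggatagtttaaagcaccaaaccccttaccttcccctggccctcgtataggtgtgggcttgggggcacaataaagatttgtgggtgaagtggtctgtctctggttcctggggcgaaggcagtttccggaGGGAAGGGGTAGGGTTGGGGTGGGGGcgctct
LAMB1, chr7:108003256-108003411, minus strand: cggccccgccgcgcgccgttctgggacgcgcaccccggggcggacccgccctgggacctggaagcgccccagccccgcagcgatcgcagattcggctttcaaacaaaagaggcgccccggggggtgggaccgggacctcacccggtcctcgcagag
The motif was 4 runs of at least 3 guanines with 1 to 7 bases between runs, and on the opposite strand it reads as runs of cytosines. It matched in 2 stretches before LAMA5, in 1 before LAMB2 and in none before LAMB1. There was also no match before LAMA4, the other laminin gene that rose, whose sequence is not printed. LAMC1, which was not called at 2 h (log2 0.14), did have a match in its window. Across genes with a RefSeq promoter the motif was found in 27.3% of 17038 windows of this length, in 17 of 32 collagen (53.1%), 3 of 9 laminin (33.3%) and 7 of 21 integrin windows (33.3%). The AP-1 element TGAGTCA matched in 2 places in the LAMA3 window, 125 and 69 bases upstream of the RefSeq start used here. That start lies inside the gene, which GENCODE places on chromosome 18 from 23689443 to 23956222 on the plus strand. The longest part of the window without an annotated exon, 23872770 to 23872839, holds neither match. The element matched in 0 of the other 61 windows of the families, against 3.59% of all windows. The cyclic AMP element TGACGTCA matched in 0 of the 62 windows, against 2.15% of all.

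**Figure D2:**
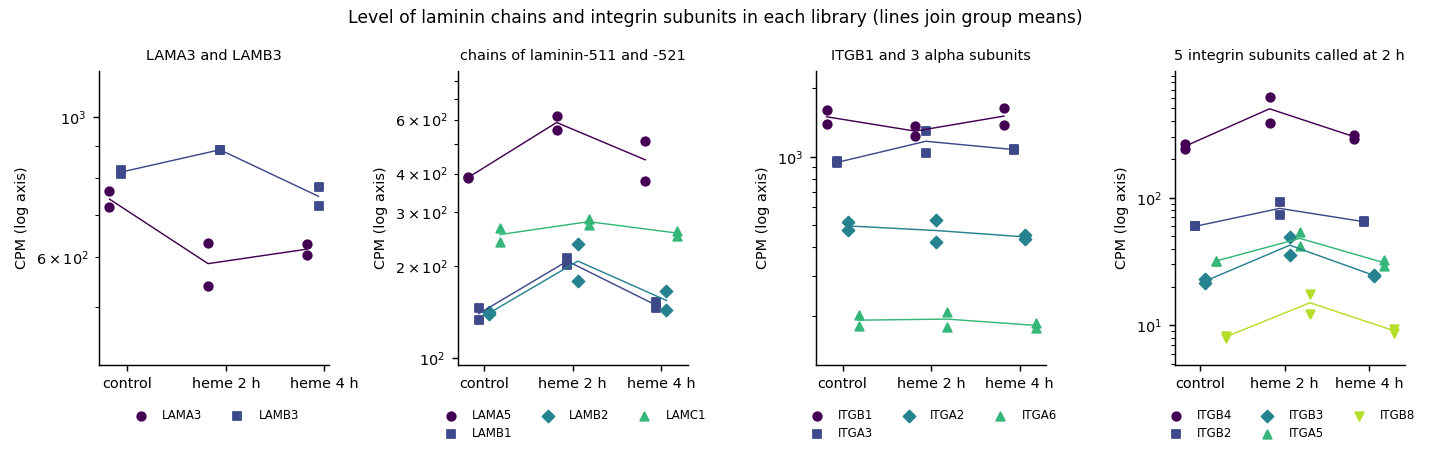
CPM on log axes of laminin chains and integrin subunits in each library (points) by group, with lines joining the group means. LAMA5, LAMB1, LAMB2 and the 5 subunits on the right peak at 2 h, while LAMA3 is lower in all 4 heme libraries than in the controls.

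The 9 integrin subunits that rose at 2 h were 5 beta and 4 alpha chains. ITGB4, the hemidesmosomal beta chain, was at 264 and 243 CPM in the controls, 612 and 382 CPM at 2 h and 290.3 and 312 CPM at 4 h (log2 0.97, SE 0.16, edgeR adjusted p = 4.08e-04). Its 2 h libraries lay farther apart on the log2 scale than those of any other of the 22 called genes, although both were above the other 4 libraries. Its only partner, ITGA6, was at 203 and 181 CPM in the controls, 179 and 209 CPM at 2 h and 186 and 178 CPM at 4 h and was not called (log2 0.02, SE 0.10). Per kb of exon the ratio of ITGB4 to ITGA6 was 1.26 and 1.29 in the controls, 3.31 and 1.76 at 2 h, and 1.51 and 1.69 at 4 h. The 4 h libraries stayed above the controls in this ratio, a difference that was not tested.

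ITGB3, which pairs with ITGAV as a receptor for vitronectin and fibronectin, was at 23.2 and 21.4 CPM in the controls, 49.5 and 35.4 CPM at 2 h and 25 and 24.2 CPM at 4 h (log2 0.93, SE 0.15, edgeR adjusted p = 3.61e-04). Both libraries of 2 h lay above all others. GENCODE places AC068234.1 over 51.6% of the exon bases of ITGB3 on the same strand; the tables give AC068234.1 at most 1 read per library, and how shared reads were counted is not given in the sources used here. ITGB8, another partner of ITGAV that releases active TGF-beta, was at 7.96 and 8.32 CPM in the controls, 12.3 and 17.8 CPM at 2 h and 9.37 and 8.77 CPM at 4 h (log2 0.89, SE 0.17, edgeR adjusted p = 0.00149). Here replicate 2 of 2 h was the higher one. ITGAV itself was at 97.7 and 90.7 CPM in the controls, 106 and 120.4 CPM at 2 h and 109 and 93 CPM at 4 h and was not called (log2 0.27, SE 0.11, edgeR adjusted p = 0.0727), but passed with the GC and length correction (log2 0.51) and without replicate 1 of 2 h (log2 0.35). Its partners ITGB5 (log2 0.06, SE 0.11) and ITGB6 (log2 0.27, SE 0.14) were not called, but ITGB6 passed with the GC and length correction (log2 0.49).

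ITGA5, the alpha chain of the main fibronectin receptor, was at 31.8 and 31.9 CPM in the controls, 54.3 and 41.8 CPM at 2 h and 29.4 and 32.5 CPM at 4 h (log2 0.59, SE 0.13, edgeR adjusted p = 0.00386). The 4 h libraries lay on either side of the controls. ITGB1, with which ITGA5 must pair, was at 1600 and 1394 CPM in the controls, 1228 and 1362 CPM at 2 h and 1642 and 1372 CPM at 4 h and was not called (log2 -0.21, SE 0.11); its log2 change was -0.31 and called without replicate 2 of 2 h. ITGA3 rose a little, from 935 and 954 CPM to 1301 and 1037 CPM (log2 0.31, SE 0.10, edgeR adjusted p = 0.0332). This call was lost in 5 of 10 alternatives, among them the GC and length correction (log2 0.09) and leaving out replicate 1 of 2 h (log2 0.13) or either control. ITGA2 was not called (log2 -0.07, SE 0.11). ITGB2 was at 59.8 and 59.6 CPM in the controls, 92.3 and 72.7 CPM at 2 h and 64 and 65.8 CPM at 4 h (log2 0.47, SE 0.12, edgeR adjusted p = 0.00775), and was not called without either control or without replicate 1 of 2 h.

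The remaining subunits that rose were scarce. ITGA7, a laminin receptor of muscle, was at 0.848 and 0.834 CPM in the controls, 1.67 and 2 CPM at 2 h and 0.929 and 1.11 CPM at 4 h (log2 1.12, SE 0.29, edgeR adjusted p = 0.00838), and the call was lost without either control. ITGA10 (log2 1.79, SE 0.49) and ITGB7 (log2 1.93, SE 0.56) stayed under 1 CPM in every library and are named only because their values were seen. In the controls ITGA10 had 13 and 8 reads and ITGB7 5 and 7, so both entered the test through heme libraries. The 2 genes that fell were ITGB1BP1, at 86.9 and 81.5 CPM in the controls, 63.7 and 62.1 CPM at 2 h and 78.3 and 72.4 CPM at 4 h (log2 -0.42, SE 0.10, edgeR adjusted p = 0.00595), and ITGB3BP, at 33 and 29.4 CPM in the controls, 18.9 and 24.1 CPM at 2 h and 26.8 and 22.1 CPM at 4 h (log2 -0.54, SE 0.14, edgeR adjusted p = 0.0117). Both calls were lost without control replicate 1, and that of ITGB3BP also without replicate 1 of 2 h and with the GC and length correction (log2 -0.21). Exons of ASAP2 cover 33.1% of the exon bases of ITGB1BP1 and exons of ZNF740 42.1% of those of ITGB7, on the opposite strand, so these values are uncertain.

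Among collagens 6 genes rose at 2 h, none of them among the most abundant. COL1A1, the main chain of fibrillar type I collagen, was at 26.2 and 29 CPM in the controls, 48.3 and 41.4 CPM at 2 h and 25.2 and 32.4 CPM at 4 h (log2 0.70, SE 0.14, edgeR adjusted p = 0.0017). Both 2 h libraries lay above the other 4, of which replicate 2 of 4 h was the highest, and the rise was called in every alternative. COL4A5, a type IV chain, was at 32.7 and 28.4 CPM in the controls, 44.3 and 44 CPM at 2 h and 35.7 and 34.3 CPM at 4 h, with the 2 h libraries nearly equal (log2 0.53, SE 0.12, edgeR adjusted p = 0.00339); it was not called without control replicate 2 (adjusted p = 0.108). COL8A1, a short-chain collagen, was at 16.6 and 14.7 CPM in the controls, 20.5 and 23.3 CPM at 2 h and 16.6 and 17.8 CPM at 4 h (log2 0.48, SE 0.13, edgeR adjusted p = 0.0128), and COL16A1, a fibril-associated one, at 4.78 and 5.41 CPM in the controls, 8.11 and 7.01 CPM at 2 h and 5.23 and 5.18 CPM at 4 h (log2 0.57, SE 0.17, edgeR adjusted p = 0.0182). COL18A1, whose cleaved end is endostatin, was at 31.9 and 31.9 CPM in the controls, 45 and 39 CPM at 2 h and 30.8 and 41.5 CPM at 4 h (log2 0.40, SE 0.14, edgeR adjusted p = 0.0423). Its higher library of 4 h lay between the 2 h libraries. COL27A1 was the scarcest, at 0.54 and 0.5 CPM in the controls, 1.04 and 1.32 CPM at 2 h and 0.62 and 0.295 CPM at 4 h (log2 1.18, SE 0.39, edgeR adjusted p = 0.0318). COL16A1, COL18A1, COL27A1 and COL8A1 were each lost without either control. COL16A1 and COL18A1 were also lost without replicate 1 of 2 h, and COL27A1 without replicate 2 of 2 h. The GC and length correction took the call from COL16A1 (log2 0.30), COL18A1 (log2 0.06) and COL27A1 (log2 0.92), and DESeq2 from COL27A1.

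COL18A1 shares 16.4% of its exon bases with SLC19A1 on the opposite strand. SLC19A1, a folate carrier, was at 70.8 and 74.7 CPM in the controls, 54.3 and 61.6 at 2 h and 77.0 and 92.5 at 4 h, and the strand setting is not given in the sources used here. With the GC and length correction the log2 change of COL18A1 was 0.06.

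The abundant collagens were not called. COL6A2 was at 343 and 334 CPM in the controls, 446 and 335 CPM at 2 h and 336 and 390.3 CPM at 4 h, and COL6A1 at 287 and 290 CPM in the controls, 315 and 264 CPM at 2 h and 281 and 322 CPM at 4 h. COL4A1 was at 134 and 121 CPM in the controls, 110.5 and 112 CPM at 2 h and 106 and 115 CPM at 4 h, and COL4A2 at 236 and 229.5 CPM in the controls, 246 and 221 CPM at 2 h and 212 and 229 CPM at 4 h. None of these 4 was called at 2 h (log2 0.21, 0.01, -0.20 and 0.00, with SE of 0.10 to 0.12). COL6A2 was called without replicate 2 of 2 h (log2 0.37). With the GC and length correction COL4A1 (log2 -0.31), COL4A2 (log2 -0.21) and COL6A1 (log2 -0.23) were called lower. COL12A1 (log2 0.15, SE 0.10) and COL13A1 (log2 0.19, SE 0.10) were not called either. The 21 tested collagens that were not called ranged from log2 -0.62 to 1.64, the top value, named after it was seen, being that of COL9A2 at 0.154 and 0.0741 CPM in the controls, 0.493 and 0.226 CPM at 2 h and 0.136 and 0.24 CPM at 4 h.

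COL4A5 and COL4A6 start back to back on chromosome X: COL4A6 runs from 108155607 to 108439497 on the minus strand and COL4A5 from 108439844 to 108697545 on the plus strand. COL4A6 was at 9.41 and 9.6 CPM in the controls, 8.71 and 10.6 CPM at 2 h and 8.65 and 10.8 CPM at 4 h and was not called (log2 0.02, SE 0.16, edgeR adjusted p = 0.932). The sequence between these genes is printed because the RNAs on its sides were called differently; the 250 bases before the RefSeq start of COL4A5 are in lower case, with the antioxidant response element TGACNNNGC, which lies on the minus strand, in capitals.
COL4A5, chrX:108439588-108439837, plus strand: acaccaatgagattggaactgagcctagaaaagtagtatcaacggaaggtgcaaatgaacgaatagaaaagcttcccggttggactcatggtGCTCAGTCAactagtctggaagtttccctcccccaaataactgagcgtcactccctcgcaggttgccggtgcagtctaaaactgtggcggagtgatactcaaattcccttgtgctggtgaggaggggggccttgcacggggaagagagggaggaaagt
The element starts 158 bases before COL4A5 and, read on the other strand, 230 bases before COL4A6. It was found in 11.6% of 17038 windows, in 2 of 32 collagen windows (these same 2), 0 of 9 laminin and 3 of 21 integrin windows. Per kb of exon, the ratio of COL4A5 to COL4A6 was 2.72 and 2.31 in the controls, 3.98 and 3.25 at 2 h and 3.23 and 2.48 at 4 h. The difference between the responses of these genes was not tested.

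**Figure D3:**
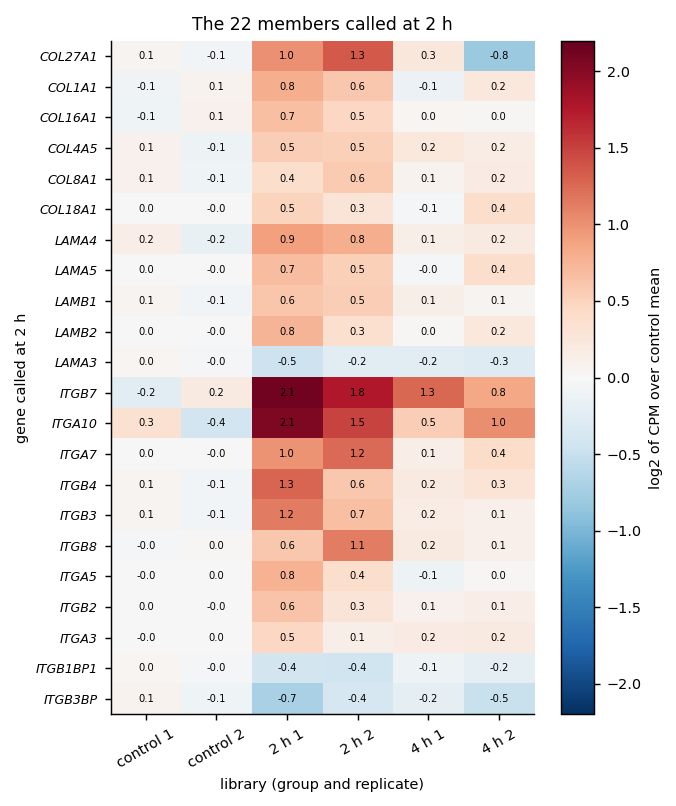
Log2 of CPM over the control mean (color and number) for the 22 genes called at 2 h (rows, grouped as collagens, laminins and integrins) in each library (columns). The 19 genes that rose are above 0 in both 2 h libraries, and LAMA3, ITGB1BP1 and ITGB3BP are below 0 in all 4 heme libraries.

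Marker genes of other cell types moved beside these changes. PECAM1, an endothelial adhesion gene, was at 20.1 and 19.8 CPM in the controls, 40.04 and 32.6 CPM at 2 h and 19.9 and 17.8 CPM at 4 h (log2 0.86, SE 0.13, edgeR adjusted p = 2.81e-04), and the 6 endothelial markers summed to 22.2 to 23.2 CPM in the controls, 35.8 to 44.5 at 2 h and 20.5 to 22.5 at 4 h. Of these 6, CDH5, KDR, VWF and TEK were under 1 CPM in every library, as was the fibroblast list beside COL1A1. TIE1 was at 2.26 and 1.81 CPM in the controls, 3.4 and 2.54 CPM at 2 h and 1.9 and 1.86 CPM at 4 h and was not called at 2 h (log2 0.54, SE 0.24, edgeR adjusted p = 0.0912). CD14 was at 0.405 and 0.796 CPM in the controls, 2.56 and 1.86 CPM at 2 h and 0.678 and 1.01 CPM at 4 h (log2 1.87, SE 0.36, edgeR adjusted p = 0.00135), with HBA1, HBA2 and HBB at 0 reads; the 8 blood cell markers summed to 43.3 to 46.5 CPM in the controls, 45.8 to 53.7 at 2 h and 43.6 to 45.7 at 4 h. The part of these cell types in the results was not tested. In bulk RNA, more cells of a type and more RNA per cell cannot be told apart.

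At 4 h 0 of the 61 tested genes differed from the controls with edgeR, and with DESeq2 0 of the 39 to which it gave an adjusted p. Over all genes 0.0308% were called with edgeR (0.0247% higher and 0.00617% lower) and 0.152% with DESeq2. At an unadjusted p under 0.05 there were 3 members (4.92%), against 3.6% of all genes: LAMA2 (log2 -0.50, SE 0.17), LAMA3 (log2 -0.26, SE 0.10) and ITGB3BP (log2 -0.35, SE 0.14), all lower and all with an edgeR adjusted p of 1. The median log2 change was 0.03 for collagens, 0.09 for laminins and -0.05 for integrin genes. Of the 52 tested genes with at least 1 CPM in a group, the changes ran from log2 -0.50 to 0.28. LAMA5 (log2 0.19, SE 0.12) and ITGB4 (log2 0.25, SE 0.15) were among those above 0 without a call.

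Set against 2 h, the 4 h libraries had 17 of 61 genes lower and 0 higher, against 28.1% of all genes called, 14.1% lower and 14.0% higher. These were 5 collagens, 5 laminins and 7 integrin subunits. This comparison shares the 2 h libraries with the one before, so a high value in them enters both. ITGB3 (log2 -0.79, SE 0.15, edgeR adjusted p = 0.00117), LAMA4 (log2 -0.70, SE 0.15, edgeR adjusted p = 0.00391) and LAMB1 (log2 -0.48, SE 0.09, edgeR adjusted p = 0.00184) were called lower in every alternative setting. The share of all genes called lower in every setting was not computed. The GC and length correction gave 3 members higher and 18 lower, with 18.9% of all genes higher and 19.2% lower. RLE size factors, no filter and DESeq2 each gave 1 higher and 14 lower, with 15.3%, 10.6% and 17.4% of all genes higher. In the same order 13.1%, 8.53% and 12.5% of all genes were lower. Leaving out replicate 2 of 2 h also gave some members higher. The median log2 change was -0.24 for collagens, -0.24 for laminins and -0.35 for integrin genes, against -0.03 for all genes. The count of lower genes was 5 without replicate 1 of 4 h (6.12% of all genes lower), 9 without replicate 2 of 4 h (9.03%; 1 further gene was higher, against 11.5% of all genes), 11 without replicate 1 of 2 h (10.6%) and 11 with only these groups in the fit (12.3%). COL2A1 (log2 -0.82, SE 0.29), ITGB6 (log2 -0.40, SE 0.14) and LAMB3 (log2 -0.24, SE 0.09) were lower at 4 h than at 2 h without a call at 2 h. LAMA3 did not move between 2 h and 4 h beyond its error (log2 0.08, SE 0.10).

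Summed over each family, the levels moved far less than the single genes. Collagen genes summed to 1428 and 1383 CPM in the controls, 1617 and 1436 at 2 h and 1363 and 1537 at 4 h. Laminin genes summed to 3191 and 3083, 3398 and 3348, and 2904 and 3053 CPM, and integrin genes to 3989 and 3698, 4268 and 4021, and 4106 and 3815 CPM. At 2 h the ratio to the control mean was 1.09, 1.08 and 1.08, and at 4 h 1.03, 0.949 and 1.03. Both 2 h libraries lay above both controls in each family, while 1 of the 4 h libraries lay between the 2 h libraries for collagens and for integrins. The sums were not tested. The 3 most abundant genes made up 61.2%, 69.6% and 76.5% of the control sums, and none of the top genes COL6A2, LAMB3 and ITGB1 was called against control. Without ITGB1 the integrin ratio at 2 h was 1.21.

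**Figure D4:**
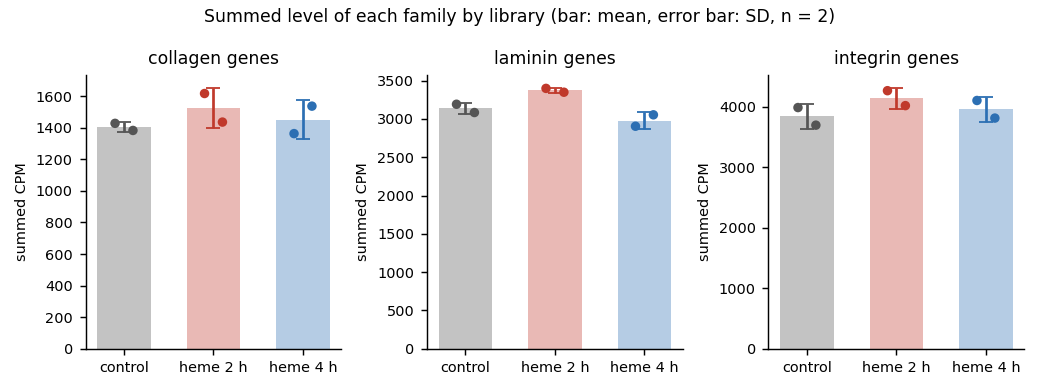
Summed CPM (vertical axis, from 0) of the collagen, laminin and integrin genes in each library (points), with group means (bars) and SD (n = 2). Both 2 h points lie above both control points in each family, with ratios to the control mean of 1.08 to 1.09, and for collagens and integrins 1 point of 4 h lies between the 2 h points.

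Other genes of matrix and adhesion were counted from lists chosen by known function, to be read against the 31.7% of all genes called at 2 h (15.9% higher and 15.8% lower). Collagen maturation had 3 of 31 genes higher and 3 lower at 2 h (19.4% called, median log2 0.005). ADAMTS14, a procollagen peptidase, was at 14.8 and 17.1 CPM in the controls, 5.78 and 7.66 CPM at 2 h and 10.8 and 14.6 CPM at 4 h (log2 -1.25, SE 0.18, edgeR adjusted p = 1.87e-04). PLOD2, a lysyl hydroxylase of collagen (log2 -0.55, SE 0.12), and COLGALT1, a collagen galactosyltransferase (log2 -0.30, SE 0.09), also fell, and PCOLCE, an enhancer of procollagen cleavage, rose (log2 0.74, SE 0.20).

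Other basement membrane and integrin ligand genes had 6 of 14 higher and 0 lower (42.9%, median log2 0.49). THBS1, thrombospondin 1, was at 1253 and 1183 CPM in the controls, 1797 and 1948 CPM at 2 h and 1150 and 1134 CPM at 4 h (log2 0.62, SE 0.09, edgeR adjusted p = 1.39e-04), with no overlap between 2 h and the rest. NTN4, a netrin that binds laminin (log2 0.69, SE 0.11), HSPG2, perlecan (log2 0.82, SE 0.14), and PXDN, a peroxidase that crosslinks collagen IV (log2 0.35, SE 0.09), rose as well. Integrin adhesion machinery had 10 of 32 higher and 2 lower (37.5%, median log2 0.21). NEDD9, a scaffold of focal adhesions, was at 2.93 and 3.41 CPM in the controls, 18.8 and 13.4 CPM at 2 h and 2.98 and 3.12 CPM at 4 h (log2 2.34, SE 0.19, edgeR adjusted p = 1.54e-06). The tensins TNS3 (log2 0.87, SE 0.11) and TNS2 (log2 1.33, SE 0.17), which bind beta integrin tails, rose, and FERMT1, an epithelial kindlin that activates integrins, fell (log2 -0.56, SE 0.11).

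Other matrix receptors had 5 of 12 higher and 1 lower (50.0%, median log2 0.05). BCAM, a receptor for the LAMA5 chain, was at 27.9 and 29.1 CPM in the controls, 50.5 and 39.98 CPM at 2 h and 29.2 and 30.5 CPM at 4 h (log2 0.67, SE 0.13, edgeR adjusted p = 0.00143), and DAG1, dystroglycan, another laminin receptor, rose too (log2 0.41, SE 0.10). LRP1, which also takes up heme bound to hemopexin, rose (log2 0.96, SE 0.15), as did the collagen receptor DDR1 (log2 0.42, SE 0.11). Against controls at 4 h none of the genes in these 4 lists was called.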

How the data were processed

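RNA of PC3 cells was extracted with Trizol and prepared with a TruSeq kit, per the labels' protocols. The authors deposited a table of raw counts for each library, with genes named by symbol. The submitters' processing notes name STAR, Trimmomatic, deepTools and SAMtools, and hg38 as the build. Their versions, the annotation and the strand setting: not given in the sources used here. The 5 summary lines were left out: 5.48% to 6.88% of reads fell outside genes and 4.23% to 4.48% were ambiguous.

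The counts were tested in R 4.3.3 with edgeR 4.0.16 (TMM, filterByExpr with a minimum count of 10, quasi-likelihood test, 3 residual degrees of freedom, Benjamini-Hochberg adjustment over all 16209 genes tested). All 3 groups entered 1 fit, which found a biological coefficient of variation of 0.0982. SE are those of the log2 change. Lengths, GC content and coordinates came from GENCODE 29 on GRCh38, in which all 86 members matched 1 gene; 62 had a promoter in the RefSeq table. The script was tested on simulated data. No library was treated as a duplicate, since chi-square per gene within groups was 9.11 to 34.2, above sampling noise. A count of 0 allows up to 3 counts, a limit that covers counting error only.

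Named members are those called in a comparison with a mean of at least 1 CPM in a group, the 5 highest of each family in the controls, and their partners in a dimer or trimer; from each list of other genes, at most the 4 with the smallest p. Members and lists were chosen with earlier results of these data known. Alternatives were RLE size factors, no filter, a replicate block, only the groups compared, DESeq2 1.42.0, each library left out, and a GC and length correction chosen after seeing the data. 1 item of the families is not reported singly here.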

Additional observations from a re-analysis of the deposited data

Results flagged for a closer look

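The change since 2 h differed from 0 for 17 of the 61 tested genes (27.9%). Over all genes the share was 28.1%, with 14.1% lower and 14.0% higher. This is a test of the difference between the 2 h and 4 h responses to heme, since both are set against the same controls. All 17 were lower at 4 h than at 2 h (edgeR adjusted p under 0.05, 2 libraries per group), and the values in parentheses are log2 changes. The laminin chains were LAMA4 (-0.70), LAMB1 (-0.48), LAMB2 (-0.43), LAMA5 (-0.41) and LAMB3 (-0.24). The integrin subunits were ITGA7 (-0.85), ITGB3 (-0.79), ITGB8 (-0.73), ITGB4 (-0.72), ITGA5 (-0.63), ITGB6 (-0.40) and ITGB2 (-0.35). The collagens were COL27A1 (-1.37), COL2A1 (-0.82), COL1A1 (-0.64), COL16A1 (-0.54) and COL4A5 (-0.34). COL27A1, COL2A1 and ITGA7 stayed at or below about 2 CPM in every library.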

How the results depend on the processing

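Of the values of single genes under an alternative setting, 889 kept their direction and their side of the threshold, 89 lost a call and 20 gained one. Another 76 changed sign with no call in either setting, and 2 changed sign with a call gained: COL4A2 (log2 -0.21) and COL6A1 (log2 -0.23) at 2 h under the GC and length correction. Both had been near 0, and the cause was not tested. Counts of called members at 2 h ranged from 12 to 26 when 1 library was left out, against 22. Counts at 4 h against 2 h ranged from 5 to 17, against 17, and came to 11 with only these groups in the fit. Over all genes the share called also changed between these settings. The ranges alone therefore do not set these families apart from other genes. At 4 h against control the count was 0 in every setting. The integrin sum at 2 h was 1.21 times the control without ITGB1, the most abundant member. A replicate block gave 24 members at 2 h (29.7% of all genes called), 0 at 4 h (0.037%) and 15 for 4 h against 2 h (25.9%). Replicate numbers did not pair the libraries: deviations of same-numbered libraries had correlations over 16209 genes of -0.0908 (control and 2 h), 0.065 (control and 4 h) and -0.0162 (2 h and 4 h). With 2 libraries per group and 3 residual degrees of freedom, small changes of scarce genes were not detectable.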
